A study of Mus musculus with 12 samples.

Results

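The *Pbx*, *Meis* and *Pknox* genes encode the TALE homeodomain proteins with which Hox proteins share their DNA sites. They were examined here as 8 genes picked by symbol, *Pbx2*, *Pbx3*, *Pbx4*, *Meis1*, *Meis2*, *Meis3*, *Pknox1* and *Pknox2*, which are 8 of the 36186 rows in the expression table. The libraries came from the E15.5 mouse forelimb zeugopod, the segment that forms the radius and ulna, in a mixed 129/CD-1 background. Laser capture microdissection (LCM), which cuts chosen cells out of a tissue section, gave 3 libraries for each of 4 groups. Wild type (WT) zeugopods were divided into resting, proliferative and hypertrophic chondrocytes, the successive states of growth plate cartilage cells; the labels write hyperproliferative for the last of these. The fourth group, *aadd*, carried homozygous frameshift mutations in the leading exon of 6 Hox genes, *Hoxa9*, *Hoxa10*, *Hoxa11*, *Hoxd9*, *Hoxd10* and *Hoxd11*. Its small zeugopods were captured as 1 chondrocyte population and carry the compartment label resting, so genotype and the region captured cannot be told apart in the comparison with WT resting. All captures held some perichondrium beside the chondrocytes.

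Hox proteins on their own read short and common DNA sequences, and binding beside a Pbx protein lengthens the site that is recognised. Meis and Pknox proteins, the latter also named Prep, bind Pbx proteins, help to keep them in the nucleus and join Pbx and Hox in larger complexes on DNA. In the early limb bud *Meis1* and *Meis2* mark the proximal segment, the future stylopod, under the influence of retinoic acid, and they are shut off in the distal region that makes the zeugopod and autopod. Levels are given as NRPKM, a normalised read level whose exact scaling is not given. It is taken here as read counts normalised for transcript length and library size. Comparisons between genes, such as the shares within a family, rest on that assumption.

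The 3 *Meis* genes had unlike patterns over the WT compartments, described below, so the 250 bases before their RefSeq starts are shown for comparison (GRCm38.p6, each written 5′ to 3′ on the gene's own strand). The *Meis3* window lies at chr7:16175145-16175394 on the plus strand, the *Meis1* window at chr11:19018970-19019219 on the minus strand and the *Meis2* window at chr2:116064620-116064869 on the minus strand. These are starts of RefSeq transcripts and not always the ends of the rows measured here: the *Meis2* window lies inside the measured *Meis2* row, and the *Meis3* window runs just past the start of its row. Capitals mark a match to the RUNX motif TGTGGT.
Meis3: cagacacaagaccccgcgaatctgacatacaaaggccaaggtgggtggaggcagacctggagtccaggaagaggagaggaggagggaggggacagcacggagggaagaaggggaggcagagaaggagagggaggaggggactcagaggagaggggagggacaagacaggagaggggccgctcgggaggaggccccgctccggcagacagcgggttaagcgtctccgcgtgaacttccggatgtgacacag
Meis1: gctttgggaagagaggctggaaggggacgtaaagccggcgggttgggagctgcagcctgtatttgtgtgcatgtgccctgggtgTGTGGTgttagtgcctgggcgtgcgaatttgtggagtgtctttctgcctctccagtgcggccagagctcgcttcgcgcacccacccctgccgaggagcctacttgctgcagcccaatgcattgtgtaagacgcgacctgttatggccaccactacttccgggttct
Meis2: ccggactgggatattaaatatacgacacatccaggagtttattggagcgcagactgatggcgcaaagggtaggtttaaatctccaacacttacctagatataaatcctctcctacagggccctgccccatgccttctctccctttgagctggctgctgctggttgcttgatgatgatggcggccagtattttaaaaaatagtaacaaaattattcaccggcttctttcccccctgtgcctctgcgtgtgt
G and C made up 63.6% of the *Meis3* window, 59.6% of the *Meis1* window and 47.6% of the *Meis2* window, beside a median of 52.4% over 32851 windows of this length. That set leaves out the windows of a single chromosome. The motifs were searched on both strands: TGATNNAT for HOX-PBX, TGACAG for MEIS-PKNOX and TGTGGT for RUNX. The RUNX letters stood once in the *Meis1* window, and 14.0% of the windows in that set held them. Neither TGATNNAT, present in 7.68% of windows, nor TGACAG, present in 15.9%, was found in the windows of *Pbx2*, *Pbx4*, *Meis1*, *Meis2* or *Meis3*, the 5 members that the table holds.

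The libraries carried the markers of their labelled compartments, with 1 exception in degree. Of 10 hypertrophic marker genes all 10 were measured, and their summed level was 49.5 to 72.9 NRPKM in WT resting, 640 to 943 in WT proliferative, 1830 to 4010 in WT hypertrophic and 33.6 to 53.5 in *aadd*. Hypertrophic replicate 1 stood apart from replicates 2 and 3: its summed cartilage markers were 2900 NRPKM against 654 and 932, and its profile lay closer to the proliferative mean (root mean square log2 difference 0.712) than to the other hypertrophic libraries (1.03). The mutated Hox genes were still transcribed in *aadd*, for example *Hoxa11* at 5.17 to 11.1 NRPKM against 11.3 to 30.5 in WT resting and *Hoxd11* at 25.1 to 35.4 against 4.34 to 7.31; a frameshift can leave the transcript in place, so these levels do not check the genotype. Among 1596 short genes, the product of value and gene span that occurred most often was taken as 1 read. This estimate put the depth at 1890000 to 3240000 reads per library. Only values above 0 entered it, 120 to 535 per library. The unit is approximate, since *Meis3* in WT resting replicate 2 came out at 0.0206 reads.

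*Pbx2* and *Pbx3*, which encode the DNA-binding core of the complexes, had the highest means over the 12 libraries, although *Pknox2* averaged 14.9 NRPKM in *aadd* against 13.6 for *Pbx3*. Neither showed a change that passed a test. *Pbx2* (gene ID 18515, mm10 chr17:34592471-34597341) stood at 36.0, 27.6 and 23.8 NRPKM in WT resting, 26.1, 17.3 and 19.2 in proliferative, 21.4, 23.2 and 21.6 in hypertrophic and 26.9, 21.2 and 21.5 in *aadd*. All 3 resting libraries were above all 3 hypertrophic ones, an ordering that 17.8% of genes passing the expression filter shared, but the difference of -0.38 on the log2 scale (SE 0.20, 95% confidence interval -0.87 to 0.11) gave an adjusted P of 0.29 with limma. *Pbx3* (gene ID 18516, mm10 chr2:34171909-34372036) stood at 15.7, 7.02 and 8.29 NRPKM in resting, 14.7, 12.5 and 11.3 in proliferative, 10.3, 10.8 and 11.4 in hypertrophic and 12.8, 14.6 and 13.3 in *aadd*. The resting group of *Pbx3* was spread by its replicate 1, which exceeded the highest *aadd* library. In *aadd* against WT resting *Pbx3* differed by 0.48 on the log2 scale (95% confidence interval -0.24 to 1.19, adjusted P = 0.68 with limma), and without resting replicate 1 by 0.82, which met the limits the study used, an unadjusted P of at most 0.05 with a fold change of at least 1.5 (at least 2 between WT compartments). The antisense gene *C79798* lies inside *Pbx3* on the opposite strand without sharing exon bases in the GENCODE annotation.

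*Pbx4*, which is best known from the testis, was near the lower limit of these libraries. It was listed at 0 in 6 of 9 WT libraries and reached 0.786 NRPKM at most among them, while the 3 *aadd* libraries had 0.533, 0.338 and 1.10 NRPKM. The estimated reads summed to 8 in *aadd* and 3 in WT resting, a ratio per depth of 2.69 with an exact 95% counting interval of 0.646 to 15.7, so no difference was detectable from the summed reads at this depth. The fitted difference was 1.79 (limma, unadjusted P = 0.13, adjusted P = 0.71), and without resting replicate 2, the only resting library above 0, it was 2.79 (unadjusted P = 0.0058, adjusted P = 0.42). Within the summed NRPKM of *Pbx2*, *Pbx3* and *Pbx4*, *Pbx2* took 74.0% ± 4.23 (SD, n = 3) in WT resting, 61.1% ± 2.97 in proliferative, 66.9% ± 1.69 in hypertrophic and 61.8% ± 4.4 in *aadd*.

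**Figure D1:**
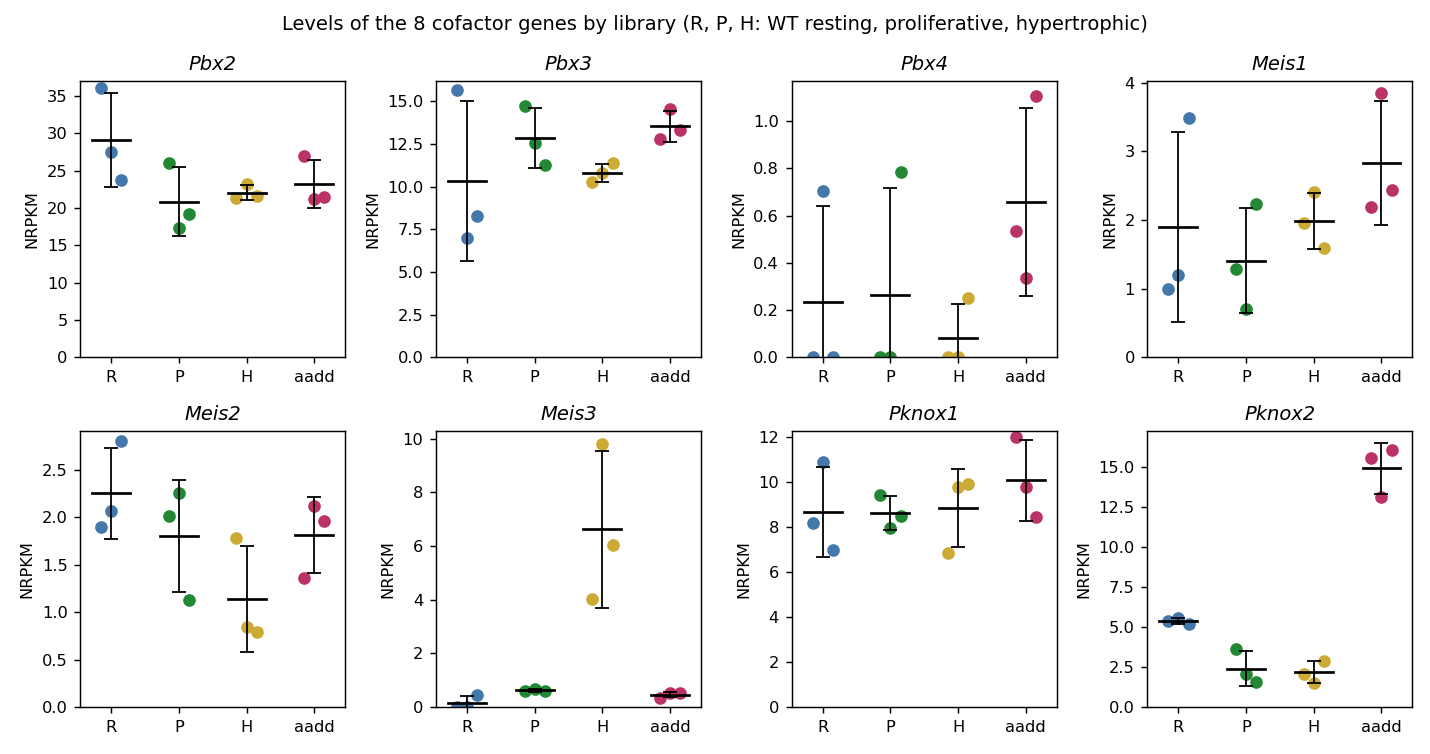
NRPKM of the 8 genes in each library, with R, P and H for WT resting, proliferative and hypertrophic; points are libraries, bars the group mean and whiskers 1 SD (n = 3), and each panel has its own axis from 0. *Meis3* is high in the 3 hypertrophic libraries (4.0 to 9.80 NRPKM) and *Pknox2* in the 3 *aadd* libraries (13.1 to 16.1 NRPKM), and the other 6 genes overlap between most groups.

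*Pknox2*, a homologue of *Pknox1* with a more restricted expression in the embryo, was higher in the *aadd* zeugopod than in every WT library. Its level (gene ID 208076, mm10 chr9:36890983-37147314) was 5.39, 5.56 and 5.20 NRPKM in WT resting, 3.60, 2.03 and 1.54 in proliferative, 2.06, 1.51 and 2.89 in hypertrophic, and 15.53, 13.1 and 16.1 in *aadd*. The lowest *aadd* library thus stood above the highest of the 9 WT libraries, an ordering that 2.82% of the 10936 genes passing the expression filter shared. The resting libraries lay within a narrow band that overlapped neither the proliferative nor the hypertrophic libraries, which overlapped each other; 14.2% of genes lay wholly lower in proliferative and 17.8% wholly lower in hypertrophic than in resting libraries.

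Between *aadd* and WT resting the *Pknox2* difference was 1.45 on the log2 scale (SE 0.16, 95% confidence interval 1.07 to 1.82), with an unadjusted P of 3.9e-05 and an adjusted P of 0.041 in limma over all 10936 genes. By the study's limits *Pknox2* was called higher, and 6.56% of the tested genes were called, 3.78% as higher in *aadd*; an adjusted P below 0.05 was reached by 0.119% of genes. It was the 1 called of the 4 members that passed the filter (a level of 5 NRPKM or more in 3 or more libraries), the others being *Pbx2*, *Pbx3* and *Pknox1*. The fold and the unadjusted criterion held in all 11 alternatives, which gave 1.31 to 1.54 on the log2 scale, whereas the adjusted P ranged from 0.031 to 0.23 and was above 0.05 whenever any 1 of the 6 libraries was left out (0.084 to 0.20). Estimated reads for *Pknox2* summed to 429 in *aadd* and 155 in WT resting.

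Along the WT compartments *Pknox2* ran the other way. It was lower in proliferative than in resting cells by -1.22 on the log2 scale (SE 0.30, 95% confidence interval -1.95 to -0.49; limma, unadjusted P = 0.0059, adjusted P = 0.15), and it met the limits of the WT comparisons. In that comparison 5.53% of genes were called, 2.97% as lower. Without proliferative replicate 3 the difference was -0.96 and fell short of the fold limit. Between hypertrophic and resting cells it was -1.33 (SE 0.25, 95% confidence interval -1.93 to -0.72; limma, unadjusted P = 0.0015, adjusted P = 0.036), where 13.0% of genes were called, 7.2% as lower, and 6.36% had an adjusted P below 0.05. That call stood without each of the 6 libraries in turn, with adjusted P values of 0.026 to 0.14. Hypertrophic and proliferative cells gave -0.11 (95% confidence interval -1.02 to 0.81, adjusted P = 0.89 with limma), among 9.67% of genes called.

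*Pknox1* (gene ID 18771, mm10 chr17:31564773-31607693), which is needed for early embryonic development and is expressed in most tissues, gave no difference that passed a test. It stood at 8.18, 10.9 and 7.0 NRPKM in WT resting, 9.45, 7.98 and 8.50 in proliferative, 6.84, 9.77 and 9.92 in hypertrophic and 12.03, 9.78 and 8.44 in *aadd*. All 4 groups overlapped, and the 95% confidence interval of the *aadd* difference, -0.32 to 0.76 on the log2 scale, allows changes of up to that size. The balance of the pair followed *Pknox2*. *Pknox2* made up 38.7% ± 4.51 (SD, n = 3) of the summed *Pknox* NRPKM in WT resting, 21.1% ± 6.18 in proliferative, 19.7% ± 5.46 in hypertrophic and 59.7% ± 5.09 in *aadd*, where it was the more abundant of the pair in each library (56.4% to 65.6%). The sum of both was 14.1 ± 2.18 NRPKM in WT resting and 25.0 ± 2.39 in *aadd*, with 11.0 ± 1.75 in proliferative and 11.0 ± 1.97 in hypertrophic cells.

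The summed markers of joint tissue moved with *Pknox2*, though not every gene of the list did. The 10 genes of that list, among them *Gdf5*, *Osr1* and *Sfrp2*, summed to 205 to 260 NRPKM in WT resting, 99.7 to 116 in proliferative, 71.0 to 118 in hypertrophic and 328 to 367 in *aadd*; no joint gene was at 0 in the resting or *aadd* libraries. Of the 9 that passed the filter, 5 were called higher in *aadd* and none lower, where 6.56% of all genes were called and 3.78% called higher. The study had already reported *Gdf5*, *Osr1* and *Dcx* from these libraries as raised in *aadd*, and *Osr2* and *Erg* as not raised. The count is therefore not independent of these data. *Gdf5*, a signal of the forming joint, was at 17.4, 8.42 and 7.43 NRPKM in resting and 34.6, 26.4 and 24.4 in *aadd*. By contrast *Osr2*, *Wnt9a*, *Trps1* and *Erg* overlapped between the 2 groups. *Prg4* ranged from 1.51 to 34.4 NRPKM in resting and from 1.55 to 3.38 in *aadd*. Tendon markers overlapped between the same groups (309 to 641 and 458 to 773 NRPKM), as did perichondrial markers (459 to 855 and 480 to 1150). In bulk captures more cells of a type and more RNA per cell cannot be told apart, and the part of joint cells in the *Pknox2* difference was not tested. The antisense gene *Gm3896* (mm10 chr9:37015758-37020671) lies inside *Pknox2* on the opposite strand, shares no exon base with it, and ran from 1.47 to 4.90 NRPKM in resting and from 5.19 to 9.66 in *aadd*. Its reads could be told from unspliced *Pknox2* reads only with strand information, which the labels do not mention.

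**Figure D2:**
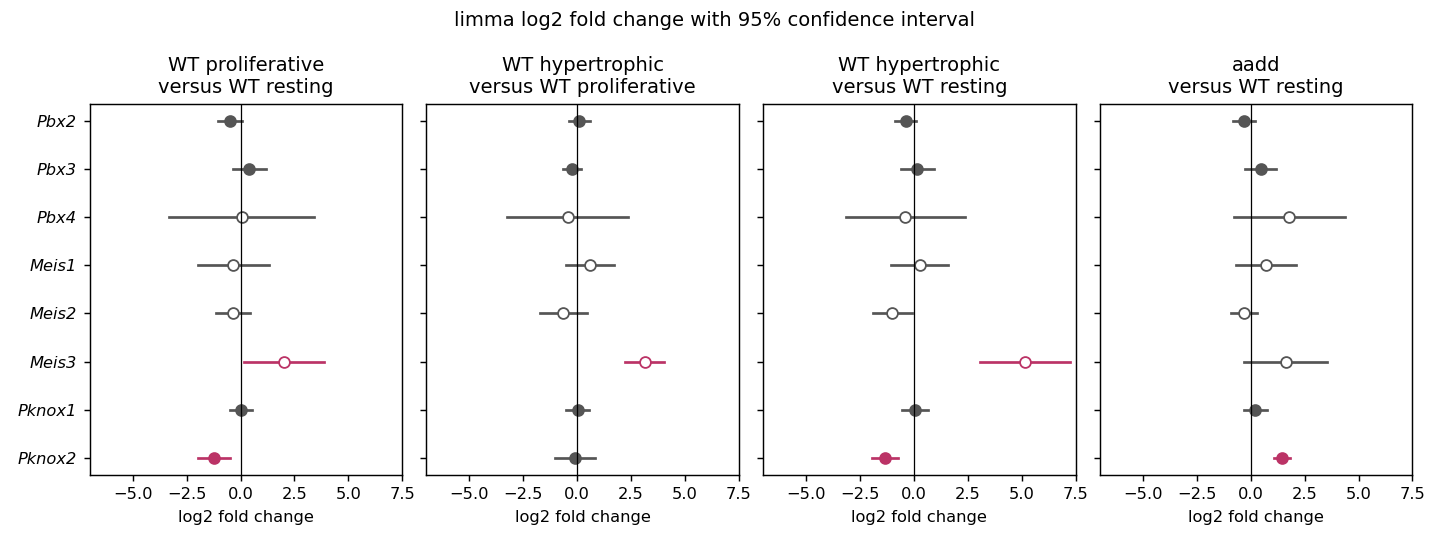
limma log2 fold change (points) with 95% confidence interval (lines) of the 8 genes in the 4 comparisons. Filled points are from the fit to genes passing the expression filter and open points from the fit to 23070 genes; red marks a difference that met the study's limits of unadjusted P and fold, which *Pknox2* did in 3 comparisons (-1.22, -1.33 and 1.45) and *Meis3* in 3 (2.01, 3.13 and 5.14).

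The Meis proteins, which tie Pbx and Hox proteins into larger complexes, came from lowly expressed genes. *Meis1*, *Meis2*, *Meis3* and *Pbx4* did not reach the expression filter and were tested in a fit to all 23070 genes above 0 in at least 1 library. *Meis1* (gene ID 17268, mm10 chr11:18880428-19018969) stood at 1.0, 1.20 and 3.49 NRPKM in WT resting, 1.28, 0.709 and 2.23 in proliferative, 1.96, 2.41 and 1.59 in hypertrophic and 2.19, 3.86 and 2.43 in *aadd*. Resting replicate 3 alone kept the *Meis1* levels of resting and *aadd* from separating. The difference was 0.72 on the log2 scale (95% confidence interval -0.67 to 2.11, adjusted P = 0.77 with limma), and without resting replicate 3 it was 1.25 and met the unadjusted limits, against 5.49% of genes called with all libraries.

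*Meis2* (gene ID 17536, mm10 chr2:115861264-116065058) stood at 1.90, 2.06 and 2.80 NRPKM in WT resting, 2.01, 2.25 and 1.13 in proliferative, 1.78, 0.840 and 0.794 in hypertrophic and 1.36, 2.12 and 1.96 in *aadd*. The 3 hypertrophic libraries lay below the 3 resting libraries, as 11.5% of the 23070 genes did. The difference of -1.0 (95% confidence interval -1.92 to -0.07; limma, unadjusted P = 0.040, adjusted P = 0.25) stopped just short of the fold limit, and without hypertrophic replicate 1 it was -1.34 with an adjusted P of 0.043.

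*Meis3*, known mainly for its part in hindbrain patterning, was the member that marked the hypertrophic compartment. Its level (gene ID 17537, mm10 chr7:16175380-16186503) was 4.0, 9.80 and 6.04 NRPKM in WT hypertrophic, against 0.587, 0.680 and 0.594 in proliferative, 0.350, 0.510 and 0.509 in *aadd* and 0, 0.00467 and 0.438 in WT resting. The lowest hypertrophic library was above all 9 others, an ordering found for 3.96% of the 23070 genes. Estimated reads summed to 109 in the hypertrophic, 7 in the proliferative, 7 in the *aadd* and 2 in the resting libraries, so only the hypertrophic level is well measured.

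Between hypertrophic and proliferative cells the *Meis3* difference was 3.13 on the log2 scale (SE 0.35, 95% confidence interval 2.22 to 4.04; limma, unadjusted P = 0.00031, adjusted P = 0.094), and the read ratio per depth was 11.7 with an exact 95% counting interval of 5.49 to 29.8. In this fit 8.36% of genes were called, 4.41% as higher in hypertrophic cells. Against resting cells the fitted difference was 5.14 (SE 0.80, 95% confidence interval 3.06 to 7.23; limma, unadjusted P = 0.0016, adjusted P = 0.068) and the read ratio 50.4 (13.6 to 422), among 11.0% of genes called and 5.95% called higher. The resting values are near 0, so the fitted size depends on the pseudocount, and with a pseudocount of 1 it was 2.68; the difference from proliferative cells was then 2.16. Both hypertrophic differences met the unadjusted limits in all 10 alternatives. The adjusted P in limma ran from 0.023 to 0.46 against proliferative cells and from 0.0028 to 0.22 against resting cells. The proliferative and resting groups did not overlap either (2.01, 95% confidence interval 0.14 to 3.89; limma, unadjusted P = 0.040, adjusted P = 0.38), where 6.48% of genes were called, 4.07% called higher, and 8.7% lay wholly higher in proliferative libraries. That value rested on 7 and 2 reads, with a ratio of 4.31 (0.821 to 42.6), and the call was kept in 3 of 10 alternatives. A replicate block raised its unadjusted P in limma to 0.064, a pseudocount of 1 lowered the difference to 0.52, under the fold limit, and leaving out any library but resting replicate 3 gave an unadjusted P of 0.093 to 0.12 in limma. Between *aadd* and WT resting *Meis3* differed by 1.63 (95% confidence interval -0.29 to 3.55; limma, unadjusted P = 0.080, adjusted P = 0.68) on 7 and 2 reads. That difference met the unadjusted limits with all 12 libraries in one fit (unadjusted P = 0.021, adjusted P = 0.81) and without resting replicate 3 (2.43, unadjusted P = 0.00028, adjusted P = 0.067).

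**Figure D3:**
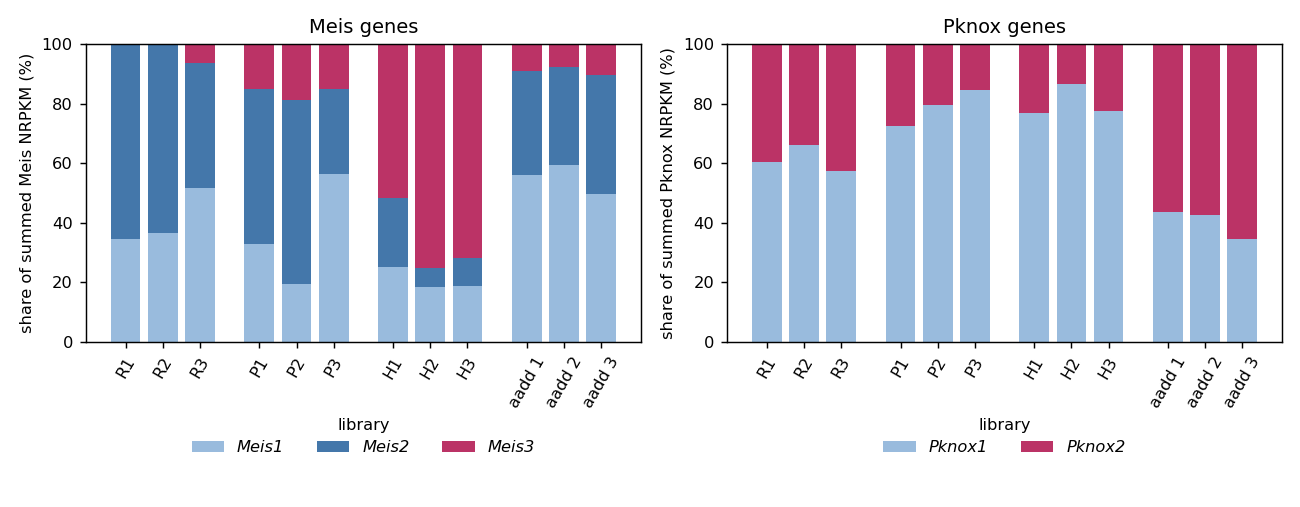
Share of each gene in the summed NRPKM of the 3 *Meis* genes (left) and the 2 *Pknox* genes (right), 1 bar per library, as a percentage from 0 to 100. *Meis3* takes 51.7% to 75.1% of *Meis* in the hypertrophic libraries, and *Pknox2* takes 56.4% to 65.6% of *Pknox* in the *aadd* libraries.

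The make-up of the *Meis* pool changed accordingly between compartments. *Meis3* took 2.22% ± 3.72 (SD, n = 3) of the summed *Meis* NRPKM in WT resting, 16.3% ± 2.08 in proliferative, 66.1% ± 12.7 in hypertrophic and 9.08% ± 1.27 in *aadd*. The summed level of the 3 genes was 9.74 ± 2.88 NRPKM in hypertrophic cells against 4.30 ± 2.11 in resting, 3.83 ± 0.163 in proliferative and 5.10 ± 1.31 in *aadd*. In resting and *aadd* cells *Meis1* and *Meis2* together made up nearly the whole pool. Even at its hypertrophic maximum the *Meis* sum remained below that of *Pbx2* and *Pbx3*.

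Markers of cells found at the bone front moved with the hypertrophic group in part. Osteoclast markers, 10 of 10 measured, summed to 72.4, 1380 and 1040 NRPKM in hypertrophic replicates 1, 2 and 3 and to 41.1 to 74.1 in the other 9 libraries. Endothelial markers summed to 48.9, 306 and 221 NRPKM in the same replicates and to 15.3 to 69.2 elsewhere, and macrophage markers to 26.4, 255 and 223 and to 15.3 to 45.4 elsewhere. The sums of hypertrophic replicate 1 lay within the range of the other 9 libraries for all 3 lists, but they are carried in part by genes expressed in every group, such as *Nfatc1* (20.9 NRPKM in replicate 1 and 25.6 to 49.2 in the other groups). Gene by gene, 6 of the 10 osteoclast markers were higher in replicate 1 than in all 9 libraries of the other groups, *Acp5*, *Ctsk*, *Mmp9*, *Atp6v0d2*, *Ocstamp* and *Tnfrsf11a*. The share of all genes with this ordering was not counted. *Acp5* was only narrowly higher, at 2.92 NRPKM in replicate 1 against at most 2.9 in the other groups. *Mmp9* was at 10.3 NRPKM in replicate 1 and at most 8.1 in the other groups, and *Atp6v0d2* at 5.3 against at most 1.22. Of the endothelial markers 1 of 10 (*Esam*) and of the macrophage markers 1 of 9 (*Cd68*) did the same, while *Calcr* of the osteoclast and *C1qa* of the macrophage markers were at 0. In replicates 2 and 3 *Mmp9* reached 422 and 378 NRPKM and *Atp6v0d2* 151 and 126. *Meis3* was 4.0 NRPKM in replicate 1, against at most 0.680 in the other groups, and higher still in the replicates with the high marker sums, and the part of these cell types in its level was not tested.

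**Figure D4:**
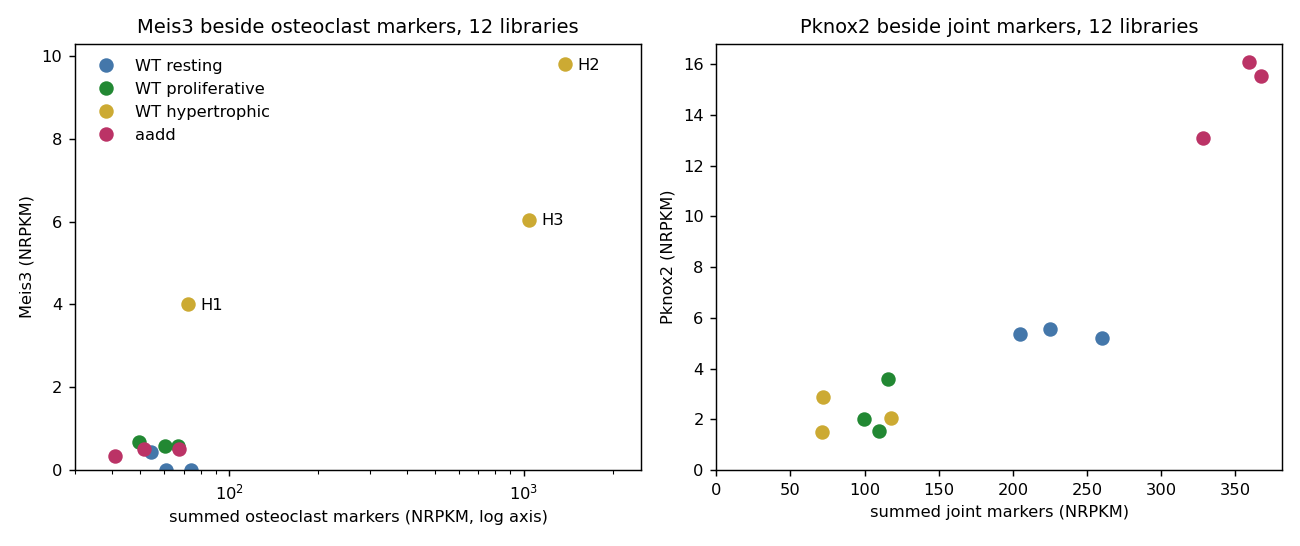
Left, *Meis3* NRPKM against the summed NRPKM of 10 osteoclast markers (log axis); right, *Pknox2* NRPKM against the summed NRPKM of 10 joint markers, with 1 point per library, 12 in each panel. Hypertrophic replicate 1 (H1) has *Meis3* at 4.0 NRPKM with an osteoclast sum of 72.4. In it 6 of the 10 markers exceed their highest value in the other groups, *Acp5* only narrowly. The share of all genes with this ordering was not counted. The *aadd* libraries have both the highest *Pknox2* and the highest joint sums (328 to 367 NRPKM).

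Over all 4 groups an F test in limma called *Pknox2* (adjusted P = 0.00085 over 10936 genes, of which 13.8% had an adjusted P below 0.05) and, in the fit to 23070 genes, *Meis3* (adjusted P = 0.0083, with 3.93% of genes below 0.05). The other 6 members had adjusted P values from 0.33 to 0.79. In the order of mean levels *Pknox2* ran *aadd*, WT resting, proliferative and hypertrophic, and only the last 2 neighbours overlapped. *Meis3* ran hypertrophic, proliferative, *aadd* and resting, and the gap from hypertrophic to proliferative was its only wide step, since *aadd* overlapped with resting (0.350 and 0.438 NRPKM) and lay just below proliferative.

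The genes with the most similar profiles were ranked by Pearson's r of log2 values over the same 12 libraries, as a description of shared pattern. For *Pknox2* these were *Gas2* (r = 0.955), which codes for a cytoskeletal protein and averaged 8.79 NRPKM in WT resting, 2.86 in proliferative, 3.04 in hypertrophic and 37.9 in *aadd*, then *5730455P16Rik* (0.95) and *Ralgapa1* (0.942). For *Meis3* they were *Rcan2* (0.965), an inhibitor of calcineurin with group means of 1.15, 3.98, 18.5 and 3.12 NRPKM in the same order, then *Ptpre* (0.957), a protein tyrosine phosphatase, and *Tbc1d4* (0.945). All r values share the 4 groups and the same libraries, so they largely restate which group is high.

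Other genes of the pathway were counted from lists. Of 10 further TALE and TALE-associated genes, 5 passed the filter. In *aadd* against WT resting, where 6.56% of all genes were called and 3.78% called higher, 1 was called higher and none lower. The median difference was -0.16 on the log2 scale beside 0.01 over all genes. The called gene was *Mkx*, a regulator of tendon differentiation (0.98, limma adjusted P = 0.20). *Tgif1*, a TALE repressor, was at -0.48 and *Pbxip1*, whose product binds Pbx proteins, at -0.33, and neither met both limits. Along the WT compartments the TALE list had 1 gene called higher and none lower in proliferative against resting cells, among 5.53% of all genes called. It had 1 higher and 1 lower in both hypertrophic comparisons, among 9.67% and 13.0% of genes called. Without the filter the counts over all 10 were 2 and 0 in proliferative against resting cells (6.48% of genes called). They were 1 and 1 in hypertrophic against proliferative cells (8.36%) and 3 and 1 in hypertrophic against resting cells (11.0%). With the filter the higher gene was *Irx5*, of the Iroquois class (2.98 against resting in proliferative cells, 6.98 in hypertrophic cells). Its size was not refitted with another pseudocount. The lower gene was *Mkx* (-1.14 in hypertrophic against proliferative and -1.56 against resting cells). These genes were named after their values were seen.

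Of 34 Hox genes, the DNA-binding partners of these cofactors, 16 passed the filter, and 10 were called higher and 1, *Hoxa11*, lower in *aadd*, with a median difference of 1.3 beside 0.01 over all genes and 6.56% of genes called. Without the filter 21 of all 34 were called higher and 0 lower, among 5.49% of genes called, and *Hoxa11* lost its call. The list holds all 6 mutated genes, so these counts and medians do not describe intact partner genes alone. Of the mutated genes, *Hoxd9* (22.5 to 29.6 NRPKM in *aadd* against 5.59 to 8.79 in WT resting), *Hoxd10* (39.6 to 52.1 against 12.2 to 23.3) and *Hoxd11* lay wholly higher. *Hoxa11* lay wholly lower, and *Hoxa9* and *Hoxa10* overlapped. *Hoxd13*, the most posterior gene of its cluster, differed most clearly (5.49, limma adjusted P = 0.0017). It was followed by *Hoxd11* (2.37, adjusted P = 0.039), *Hoxc5* (2.59, adjusted P = 0.049) and *Hoxc8* (2.36, adjusted P = 0.050). Along the WT compartments none of the 16 was called higher; 5 were lower in proliferative than in resting cells, 5 in hypertrophic than in proliferative cells and 11 in hypertrophic than in resting cells, among 5.53%, 9.67% and 13.0% of all genes called. Without the filter *Hoxb2*, *Hoxb5*, *Hoxb6* and *Hoxb7*, named after their values were seen and all at a mean below 2 NRPKM, were called higher in both hypertrophic comparisons. Beside them 4 genes were lower than in proliferative and 11 lower than in resting cells, among 8.36% and 11.0% of genes called. The median Hox difference from resting to hypertrophic cells was -1.44 beside -0.02 over all genes.

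Of 18 limb patterning genes, retinoic acid handling and targets included, 13 passed the filter. In *aadd*, among 6.56% of all genes called, 1 was called higher and 2 lower, with a median of -0.07 beside 0.01 over all genes. *Shox2*, a homeobox gene of the proximal limb skeleton, was lower (-3.53, limma adjusted P = 0.029), as was *Lef1*, a nuclear effector of Wnt signals (-3.51, adjusted P = 0.033). *Hand2*, a transcription factor of the posterior limb bud, was called higher by the unadjusted limits (2.63, limma adjusted P = 0.45). That call was lost without the filter, where 0 of all 18 genes were higher and 2 lower, among 5.49% of genes called. *Cyp26b1*, which degrades retinoic acid, differed by 0.45, under the fold limit. The study had already reported *Shox2*, *Lef1* and *Hand2* as changed in these libraries, so this count is not independent of them. In hypertrophic against resting cells, where 13.0% of all genes were called, none of the 13 was higher and 8 were lower. Without the filter 1 of 18 was higher and 7 were lower, among 11.0% of genes called.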

How the data were processed

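RNA (20 ng per sample) from 10 µm cryosections was amplified with the NuGEN Ovation RNA-Seq System V2, tagmented with Nextera and sequenced on an Illumina HiSeq instrument. The submitters' processing notes name TopHat and mm10; the aligner version, the read counting and whether strand was used are not given in the sources used here. The authors removed reads with more than 1 position in the genome and duplicate reads, and deposited values as NRPKM, an RPKM normalised in GeneSpring 12.6.1, whose exact scaling is not given either.

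Differences were tested with limma 3.58.1 in R 4.3.3 on log2(NRPKM + 0.1), which understates changes of low genes. Genes needed at least 5 NRPKM in at least 3 of 12 libraries. Each comparison was fitted to its 6 libraries without covariates, with the Benjamini-Hochberg adjustment over all genes tested. Confidence intervals are 95%. Python 3.11.15 and scipy 1.17.1 computed the read ratios; their exact binomial intervals cover counting error only, and reads were estimated from the value of 1 read and exon lengths. The study gives 3 samples per group from separate captures, and P values measure the spread between these; an exact permutation test of 3 against 3 cannot go below 0.1.

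All 8 members were named, then the 3 genes most like each called member, and up to 4 genes per list with the smallest unadjusted P in *aadd* against WT resting. *C79798*, *Gm3896*, *Gdf5*, *Osr1*, *Sfrp2*, *Hoxa11* and the osteoclast, endothelial and macrophage markers were named for their overlap, list or mutation. The members and lists were chosen with earlier results of these data known. Same-numbered libraries deviated together in proliferative and resting cells (r = 0.281, 0.179 and 0.198), so a replicate block was fitted there as a pairing; in the other comparisons at least 1 pair had r below 0.1. Alternatives were a pseudocount of 1, no filter, median of ratios rescaling, all 12 libraries in one fit, a replicate block and leaving out each library. Promoter windows came from RefSeq.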

Additional observations from a re-analysis of the deposited data

How the results depend on the processing

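Of the comparisons, the numbers of members called changed with the filter and with single libraries. Without the filter the calls went from 1 to 2 in proliferative against resting cells, from 0 to 1 in hypertrophic against proliferative cells, from 1 to 2 in hypertrophic against resting cells and from 1 to 2 over the 4 groups, the added member being *Meis3* each time, since only this fit tests it. A pseudocount of 1 left 0 calls in proliferative against resting cells, where *Pknox2* was at -0.96. Leaving out each library gave 0 to 1 calls there, 1 to 2 in *aadd* against WT resting and 1 to 2 over the 4 groups; the added member in the last pair was *Pbx3*, without resting replicate 1.

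With the replicate block, *Pknox2* in proliferative against resting cells kept its call (adjusted P = 0.15), and *Meis3* there lost it. Whether the numbers pair the other groups is not stated, and low r values cannot show that they do not. With the block the adjusted P of *Pknox2* in limma was 0.092 in hypertrophic against resting cells and 0.18 in *aadd*, and the unadjusted limits still held. With all 12 libraries in one fit the latter was 0.23.

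Directions that reversed belonged to differences that passed no test; the cause was not tested. Under median of ratios rescaling *Pknox1* in hypertrophic against proliferative cells was -0.023 on the log2 scale. Over left-out libraries, proliferative against resting cells ranged from -1.0 to 1.05 for *Pbx4*, from -0.71 to 0.20 for *Meis1* and from -0.13 to 0.19 for *Pknox1*. Hypertrophic against proliferative cells ranged from -0.022 to 0.27 for *Pbx2*, from -1.05 to 0.60 for *Pbx4*, from -0.076 to 0.19 for *Pknox1* and from -0.36 to 0.22 for *Pknox2*. Hypertrophic against resting cells ranged from -0.077 to 0.50 for *Pbx3*, from -1.0 to 0.60 for *Pbx4*, from -0.070 to 0.78 for *Meis1* and from -0.11 to 0.20 for *Pknox1*. Without the filter the Hox genes called higher in *aadd*, mutated genes included in the list, went from 10 of 16 to 21 of 34. Those called lower went from 1 to 0. Depth limits *Pbx4* throughout and *Meis3* outside the hypertrophic libraries.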
